A study of Mus musculus with 6 samples.

Results

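Opposite-strand genes are annotated on the strand across from a known gene, and their symbols are that gene's symbol with os added. Most are long non-coding RNAs, transcripts without a long open reading frame. Such antisense transcripts are known to act in cis in several loci, by pairing with the sense RNA, by interfering with its transcription or by recruiting chromatin enzymes, and for most of them no role has been described. The gene a symbol is taken from is called the sense gene here. Of the 15286 genes in the count table, 190 carried a symbol that ends in os, or in os and a number, and were not protein-coding in the GENCODE vM21 annotation. The 79 genes described here were selected on their counts: each had a mean raw count of 20 or more over the 6 libraries. A further 4 genes at or above that mean, Pcsk2os1, Pcsk2os2, Nkx2-2os and Junos, were left out. The annotation types 77 of the 79 genes as antisense, Ino80dos as a lincRNA and Usp46os2 as a processed transcript. They take their names from 73 sense genes, since 5 sense genes (Rapgef4, Ube4b, Prkag2, Pitpnm2 and Chn1) gave their symbol to 11 of them.

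The counts came from pancreatic islets of 12 weeks old male mice on the C57BL/6N background, with 1 library of strand-specific total RNA per mouse. Mutants (flox/flox) carry a floxed, promoter-driven neo cassette in the first intron of both copies of the lncRNA gene A830019P07Rik (P07Rik), which the authors describe as a constitutive allele that ends its transcription early. WT mice (P07Rik+/+) were their littermates. WT2772 and WT2777 (WT replicates 1 and 2) and KO2775 and KO2776 (flox/flox replicates 1 and 2) belonged to litter 1. WT2931 and KO2938 (replicate 3 of each genotype) belonged to litter 2. All mice were fasted overnight, and their islets were isolated with collagenase and a density gradient, picked by hand and kept at 3 mM glucose for 2 h before RNA extraction. No count of P07Rik was available, and genotypes were taken from the labels. In total, WT2772, WT2777 and WT2931 had 698588, 793596 and 690726 counts, and KO2775, KO2776 and KO2938 had 646141, 611181 and 800255. A count is the number of reads that the authors assigned to a gene.

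KO2938 stood apart from the other libraries in how its counts were distributed. AY036118, a gene within an annotated ribosomal RNA unit, took 41.0% of its counts (Wilson 95% interval 40.9% to 41.1%), against 13.6% in WT2931 and 22.1% in KO2776, the lowest and the highest of the other 5 libraries. The 79 opposite-strand genes together held 0.934% of the counts in KO2938 (95% interval 0.913% to 0.955%) and 1.40% in WT2931 (1.38% to 1.43%), with the other 4 libraries between them. These intervals cover counting error only. After TMM scaling, which sets the library sizes so that most genes keep their level, the summed CPM (counts per 10⁶ counts) of the 79 genes lay between 12243 in WT2777 and 13100 in WT2931. The TMM factor of KO2938 was 0.739 and those of the other libraries were 0.973 to 1.12. Values in CPM below are on this TMM scale unless library size alone is named.

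Counts under marker genes of the cell types of the pancreas were listed beside the islet label. All 10 beta cell markers and all 8 markers shared by endocrine cells were in the table, with Ins2 and Chga as their most abundant genes. Summed counts of the beta cell list were 355, 469 and 327 in WT2772, WT2777 and WT2931, and 357, 293 and 225 in KO2775, KO2776 and KO2938. Irx2 and Gc of the alpha cell markers and Hhex of the 4 delta and PP cell markers had no row in the table and were not analysed here. Of the markers of other pancreatic cells, 7 of 10 acinar, 2 of 6 ductal, 4 of 5 endothelial, 2 of 6 stromal and 2 of 5 immune genes were in the table. Their most abundant genes were Cel, Krt7, Plvap, Acta2 and Cd68. In the order WT2772, WT2777, WT2931, KO2775, KO2776 and KO2938, the acinar list summed to 51, 66, 53, 32, 28 and 35 counts and the ductal list to 38, 29, 55, 33, 18 and 53. Summed counts of the alpha cell list were 60, 133, 48, 52, 69 and 31, and those of the delta and PP cell list 33, 46, 23, 21, 32 and 15. The endocrine list reached 657, 837, 612, 653, 592 and 408 counts. The endothelial list reached 11, 18, 13, 17, 4 and 5, the stromal list 7, 3, 5, 2, 5 and 5, and the immune list 15, 12, 11, 7, 9 and 4. In bulk RNA, fewer cells of a type and less RNA per cell cannot be told apart, and the strand of the reads, described next, limits what these counts say about cells.

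Counts under the genes that islets are known for were small, and this sets the scale for the opposite-strand genes. Ins2, which encodes insulin, had a mean of 151.5 counts per library, or 115 counts per kb of annotated exon. Gcg (glucagon) had a mean of 53.0 counts, and the housekeeping genes Actb and Gapdh had means of 26 and 44.0 counts. Measured per kb of exon, 9 of the 79 opposite-strand genes lay above Ins2 and 76 lay above Actb. The library kit keeps the strand of the RNA, and the counting program by default takes only reads that lie on the strand of the gene. Which strand the reads of this kit represent is not given in the sources used here. Whether a count under an os name stands for RNA of that gene or for RNA of the gene across from it was therefore not tested. The same holds for counts under every other gene, the markers and their lists included, and the counts below are not read as levels of the named transcripts.

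The position of the exons was not used to choose the genes. All 79 lay at least partly inside a gene on the other strand. Exons of 62 overlapped exons of the sense gene, and 50 of the 79 genes overlapped its coding sequence. A further 15 overlapped the span of the sense gene but none of its exons. Brip1os and Fbxl12os lay beside their sense genes, head to head at a distance of 176 bp and tail to tail at 846 bp. Counting every gene on the other strand, 64 of the 79 genes (81.0%) had an exon over an opposite exon, and the remaining 15 lay in introns or partly outside the gene across from them. For 8 of the 64, the longest overlap was with a gene other than the one in the name. Exons of Brip1os covered 800 bp of Med13 and 512 bp of Ints2 exons, and those of Phtf1os covered 2101 bp of Rsbn1 against 448 bp of Phtf1. Tomm6os overlapped Prickle4 by 1221 bp, Ino80dos overlapped Ndufs1 by 489 bp, Dhrs13os overlapped Phf12 by 528 bp and Fcnaos overlapped Ccdc183 by 399 bp. In Fbxl12os and Ccdc142os the longest overlap was with the annotated genes Gm26521 and Gm42688. The median share of exon bases that lay over an opposite exon was 15.6% for the 79 genes and 3.33% for the 107 os genes under the mean of 20, of which 56.1% had such an overlap.

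Other classes of genes gave a background for these numbers. A mean of 20 counts or more was reached by 43.7% of the 190 os genes, by 47.0% of 1499 antisense genes without an os name, by 29.1% of 628 lincRNA genes and by 19.4% of 10361 protein-coding genes. Among os genes with an exon over an opposite exon the share was 53.1% of 128, and among those without one it was 24.2% of 62. The same split gave 57.2% and 24.9% for the other antisense genes, and 36.2% and 9.31% for protein-coding genes. In each of these 3 classes the genes with an opposite exon reached the mean more often. The median of the mean counts per kb of exon was 10.9 for os genes, 17.4 for the other antisense genes and 1.06 for protein-coding genes. These shares describe the classes and were not tested.

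Among the 79 genes the mean count ran from 20.2 (Fcnaos) to 844.5 (Brip1os), with a median of 67.8. It reached 100 in 28 genes and lay under 50 in 26. The 12 genes of highest mean count follow by the role of their sense genes, each with its CPM in the order WT2772, WT2777, WT2931, KO2775, KO2776 and KO2938. These levels chose the genes and carry no test.

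Kdm6bos, Zfhx2os and Ino80dos were named for regulators of chromatin and transcription, and Phtf1os and Brip1os are listed with them. Kdm6bos lies across from Kdm6b, a demethylase of lysine on histone H3 that removes a repressive mark. It had a mean of 376 ± 56.4 counts (SD, n = 6) and CPM values of 554, 528, 548, 638, 546 and 523. At 448 counts per kb of exon it was the highest of the 79 genes on that scale, and its libraries differed little, with KO2775 above the other 5. Zfhx2os, across from a zinc finger homeobox factor, had CPM values of 391, 348, 380, 367, 379 and 334. Its highest value was 1.17 times its lowest, the smallest such ratio among the 79 genes. Ino80dos is named for a subunit of the INO80 nucleosome remodelling complex. Its CPM values of 261, 251, 270, 301, 284 and 285 put every flox/flox library above every WT library on the TMM scale. With library size alone KO2938 was its lowest library (211 CPM) and the genotypes overlapped. Phtf1os had CPM values of 442, 470, 365, 389, 495 and 556, with both its lowest and its highest value in litter 2. With library size alone both libraries of litter 2 (411 CPM each) were below every library of litter 1. Brip1os, the gene with the most counts, starts next to Brip1, which encodes a DNA helicase that binds BRCA1, and runs across the Integrator subunit gene Ints2 and the Mediator subunit gene Med13. Its CPM values were 1235, 1351, 954, 1371, 1303 and 1318. WT2931 was the low library on the TMM scale, and the other 5 lay close together. With library size alone KO2938 was the lowest (974 CPM). It and WT2931 (1074 CPM) were then below every library of litter 1. Brip1 itself was not analysed here.

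Signalling genes of neurons and endocrine cells gave their names to a second group. Grin1os lies across from Grin1, the subunit shared by all NMDA-type glutamate receptors, and 1184 bp of its exons cover Grin1 coding sequence. Its CPM values were 531, 456, 722, 463, 581 and 578, highest in WT2931. Rapgef4os2 is 1 of 3 genes named for Rapgef4 (Epac2), a cAMP-regulated exchange factor known for its part in insulin secretion. It had CPM values of 357, 323, 346, 377, 370 and 398, with the 3 flox/flox libraries above the 3 WT libraries by a small margin. With library size alone KO2938 was its lowest library (295 CPM). The other members of that locus, Rapgef4os3 and Rapgef4os1, had mean counts of 129.8 and 48.3, and neither had an exon over a Rapgef4 exon. Prkag2os2 is named for a regulatory subunit of AMP-activated protein kinase. Its CPM values of 218, 251, 345, 301, 315 and 285 were lowest in WT2772 and WT2777 on the TMM scale. KO2938 was its lowest library (211 CPM) with library size alone.

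The remaining 4 of the 12 were named for genes of protein turnover, membrane traffic and nucleotide salvage, and for 1 gene without a described role. Ube4bos1 lies across from Ube4b, which lengthens ubiquitin chains, and had CPM values of 587, 614, 753, 586, 520 and 708. Both libraries of litter 2 were above all 4 of litter 1. A second gene of that locus, Ube4bos3, had 206, 169, 235, 201, 188 and 269 CPM and the same order of litters. Scaled by library size alone, the litters overlapped in both genes. Rab10os is named for a small GTPase of exocytic vesicles, and its values of 364, 332, 362, 400, 396 and 332 CPM overlapped between genotypes and between litters. Fam219aos had 276, 275, 389, 234, 273 and 299 CPM. Uckl1os, across from a uridine and cytidine kinase gene, had 244, 247, 350, 308, 240 and 332 CPM. In both genes the libraries of litter 2 were above those of litter 1 on the TMM scale, and with library size alone the litters overlapped.

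The other 67 genes had lower means. Those named for transcription factors included Hopxos (107 counts), Zbtb11os1 (112.8), Nr6a1os (39.3), Prox1os (31.0), Bach2os (29.5), Pax6os1 (24.8) and Sp3os (20.8). Receptor and signalling genes were represented by Itpr3os, across from a calcium channel of the endoplasmic reticulum, with a mean of 86.0 counts. Tnk2os had 76.5 counts, Rptoros, across from the mTORC1 subunit gene Rptor, 51.8, Egfros 39.3 and Faddos, across from a death receptor adaptor gene, 35.0. Metabolic and transport genes were represented by Man2c1os (184.8 counts), Far1os (124.5), Acss2os (33.3) and Slc6a19os (24.8). Mitochondrial proteins gave their names to Tomm6os (114.5 counts), Ict1os (62.0) and Taco1os (22.5). The Ict1 gene is now called Mrpl58, and Prosc, the sense gene of Proscos, is now called Plpbp. Dnm3os, known as the precursor of microRNAs, had CPM values of 89.2, 85.7, 90.6, 96.2, 106 and 129, and its mean of 66.2 counts was spread over 7928 bp of exon. Across the libraries the highest CPM of a gene was on the median 1.59 times its lowest, against 1.84 times for all 5478 tested genes. Low counts widen this ratio, and at a mean count as high as that of the lowest of the 79 genes it was 1.63 for all tested genes (3481 genes) and 1.57 for antisense genes without an os name (701 genes). The ratio was under 2 in 65 of the 79 genes. It was largest in Dhx58os (4.29), Pitpnm2os2 (3.77) and Slfn5os (3.61).

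Next, each gene was set beside its sense gene in counts per kb of annotated exon. The comparison is a description without a test, since the mean count of the opposite-strand gene chose the pairs. Of the 79 genes, 66 had a sense gene in the table, and the sense genes of the other 13 were not analysed here. All 66 had more counts per kb than their sense gene in the mean over libraries, and 65 did so in each of the 6 libraries. The exception was Pax6os1, which was above Pax6 in 5 libraries. The median ratio per kb was 47.1, or 5.56 on the log2 scale, with a range from 1.26 (Pax6os1) to 603 (Kdm6bos). On raw counts, without regard to length, 63 of the 66 were above their sense gene. The sense genes themselves had a median of 5.17 raw counts per library, and 8 of the 60 distinct sense genes in the table reached the mean of 20 that was asked of the opposite-strand genes. Pairs whose exons overlap had a median ratio per kb of 60.7 (51 pairs), and pairs whose exons do not overlap had a median ratio per kb of 19.9 (15 pairs).

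**Figure D1:**
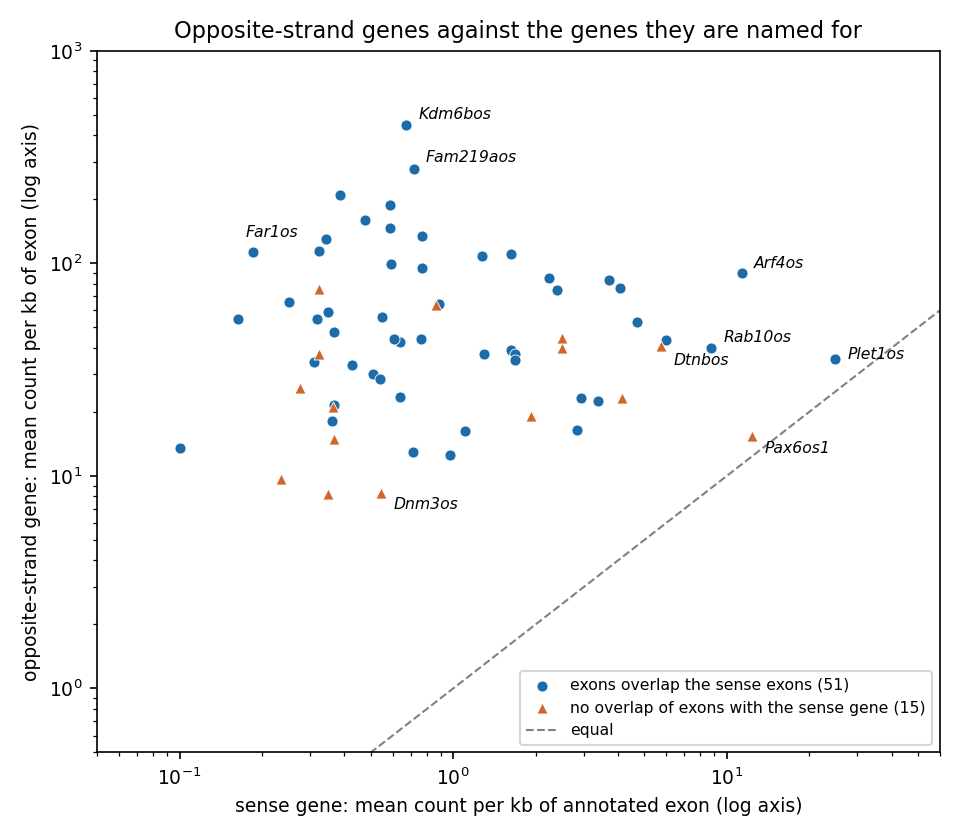
Mean counts per kb of annotated exon over 6 libraries, for 66 opposite-strand genes (vertical log axis) against the genes they are named for (horizontal log axis). Circles are pairs whose exons overlap, triangles are pairs whose exons do not, and the dashed line marks equal values. All 66 points lie above the line, with Pax6os1 (ratio 1.26) and Plet1os (ratio 1.42) closest to it.

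Single pairs show the range. Kdm6bos had 404, 407, 405, 431, 310 and 299 raw counts in the library order given above. Kdm6b had 5, 9, 4, 5, 3 and 2, although its exons are 6954 bp long and those of Kdm6bos 840 bp. Every value of Kdm6bos was far above every value of Kdm6b. Grin1, which is mainly a neuronal gene, had 3, 2, 9, 3, 0 and 3 counts, and Rapgef4 had 3, 2, 1, 3, 0 and 4.

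The 3 pairs whose sense genes had the most counts per kb were those of Plet1, Pax6 and Arf4. Plet1 had 24.8 counts per kb, and Plet1os had 35.3. Raw counts were 37, 58, 44, 58, 64 and 29 for Plet1 and 39, 57, 44, 56, 41 and 27 for Plet1os, so that the 2 genes were close to each other in 5 libraries and Plet1 was clearly above in KO2776. Pax6, a transcription factor that all islet endocrine cells need, had 165, 184, 153, 145, 125 and 97 raw counts, more than any other sense gene. Pax6os1 had 18, 33, 32, 22, 24 and 20. Per kb of exon the values were 12.4 for Pax6 and 15.3 for Pax6os1, whose exons share no base with Pax6 exons. Arf4, a small GTPase of the Golgi, had 11.3 counts per kb and Arf4os 90.4.

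The threshold on the mean bounded the list as follows. The 3 genes just inside it were Fcnaos (mean 20.2, counts 17 to 26), Sp3os (20.8, counts 15 to 28) and Taco1os (22.5, counts 18 to 28). The 3 os genes just outside were Bcas3os1 (mean 19.7, counts 13 to 32), Frs3os (18.2, counts 12 to 25) and Rspo4os (17.8, counts 14 to 24). Of the 107 os genes under the mean, 66 had a sense gene in the table. Per kb of exon, 54 of those were above their sense gene, with a median ratio of 4.24. On raw counts, 38 of them were above it. Zfp335os, named after its values were seen, was on the other side. Zfp335 had 164, 167, 204, 171, 136 and 119 raw counts against 8, 11, 10, 6, 9 and 11 for Zfp335os, a ratio per kb of 0.224.

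Where an opposite-strand exon covers a coding exon, the same bases carry both annotations, and only the strand of a read decides the gene it is counted for. Windows of 90 bases that cross the edge of such a coding exon are printed for 5 genes, taken from GENCODE vM21 transcripts (build GRCm38) and read 5′ to 3′ on the strand of the os gene. Capitals mark the 45 bases over the coding sequence of the sense gene, and lower case marks the 45 bases over its intron. Kdm6bos, Grin1os and Rapgef4os2 are shown for their high counts, and Slfn5os and Uckl1os for the difference between litters described below. The windows lie at chr11:69401619-69401708 (plus strand) for Kdm6bos, chr2:25295893-25295982 (plus strand) for Grin1os, chr2:72225005-72225094 (minus strand) for Rapgef4os2, chr11:82959960-82960049 (minus strand) for Slfn5os and chr2:181581811-181581900 (plus strand) for Uckl1os.
Kdm6bos: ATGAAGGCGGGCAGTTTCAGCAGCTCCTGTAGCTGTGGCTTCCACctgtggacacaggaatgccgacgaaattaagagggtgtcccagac
Grin1os: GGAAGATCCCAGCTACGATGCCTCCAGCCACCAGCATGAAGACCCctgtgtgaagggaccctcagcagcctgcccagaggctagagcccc
Rapgef4os2: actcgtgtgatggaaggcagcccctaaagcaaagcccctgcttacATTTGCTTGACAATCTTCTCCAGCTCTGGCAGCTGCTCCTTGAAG
Slfn5os: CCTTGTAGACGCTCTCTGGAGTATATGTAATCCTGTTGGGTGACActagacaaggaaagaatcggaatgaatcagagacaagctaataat
Uckl1os: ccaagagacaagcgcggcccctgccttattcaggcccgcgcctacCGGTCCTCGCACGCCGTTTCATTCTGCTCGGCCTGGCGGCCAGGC
The lower-case part of each window lies in an exon of the os gene and in an intron of the sense gene.

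The first comparison the study was built for is that of flox/flox with WT islets, and it was not used to choose the genes. All 79 genes passed the low-count filter, and edgeR's quasi-likelihood test with genotype as the only term gave 0 genes an adjusted p-value under 0.05, among the 79 as among all 5478 tested genes (0%). DESeq2 also called 0, with 1 of the 79 genes at an unadjusted p under 0.05, against 35 of 5478. By edgeR there was likewise 1 of the 79 genes at an unadjusted p-value under 0.05, Zmiz1os1, against 101 of 5478 (1.84%). WT and flox/flox values did not overlap in 9 of the 79 genes, against 407 of 5478 (7.43%). The median log2 fold change of flox/flox over WT was 0.02 for the 79 genes and -0.01 for all tested genes, and the extremes among the 79 were -0.51 and 0.42. TMM centres this median near 0, and with library size alone the median of all tested genes was -0.23. On the TMM scale, the 9 genes whose genotypes did not overlap were 6 higher and 3 lower in flox/flox. Library size alone also set 9 genes apart, 0 higher and 9 lower. Only Zmiz1os1, Tmem150cos and Atxn7l1os2 were in both sets, and the 6 higher genes overlapped with library size alone. This comparison of scalings was added after seeing the data. For all tested genes library size alone gave 22 higher and 526 lower. This test leaves the litter out of the model. A block on litter, or on 3 pairs matched by litter and replicate number, was also fitted. With either block edgeR called 3 of the 5478 genes, none of them among the 79. These blocks, in that order, put 296 and 286 of the 5478 genes at an unadjusted edgeR p-value under 0.05. Each put 1 of the 79 genes there. Marker lists of exocrine cells were set beside this. The acinar list summed to 70.0, 85.7 and 71.7 CPM in WT2772, WT2777 and WT2931 and to 47.4, 49.3 and 61.2 CPM in KO2775, KO2776 and KO2938, every flox/flox value below every WT value. Cel gave the most counts of the list, and Prss2 did not share the direction, with 1, 3 and 0 counts in WT and 2, 3 and 2 in flox/flox libraries. The ductal list overlapped between genotypes, at 52.1, 37.6 and 74.4 CPM in WT and 48.9, 31.7 and 92.6 CPM in flox/flox libraries. Neither list was tested.

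The 3 genes with the smallest p-values in each direction are given with their CPM values. Zmiz1os1 lies across from Zmiz1, a coregulator of transcription in a region linked to type 2 diabetes. It had 144, 132 and 157 CPM in WT2772, WT2777 and WT2931, and 105, 93.3 and 105 CPM in KO2775, KO2776 and KO2938. The flox/flox libraries were all below the WT libraries, with a log2 fold change of -0.51 and an edgeR adjusted p of 1.00. Sense counts were few, with 6, 3, 6, 4, 6 and 2 for Zmiz1. Atxn7l1os2 had 57.6, 50.6 and 48.7 CPM in WT and 44.4, 38.7 and 38.4 CPM in flox/flox libraries. The groups did not overlap, at a log2 fold change of -0.36 (-0.57 with library size alone). Itpr3os had 121, 123 and 169 CPM in WT and 117, 104 and 122 CPM in flox/flox libraries. Its groups overlapped, at a log2 fold change of -0.27, which was -0.08 without WT2931 and -0.49 with library size alone.

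Pard3bos1, named for a cell polarity gene, had 43.9, 40.2 and 39.2 CPM in WT and 60.7, 51.1 and 52.4 CPM in flox/flox libraries. Dnm3os, with the values given above, and Egfros, named for the EGF receptor, likewise had every flox/flox value above every WT value on the TMM scale. The genotypes overlapped in all 3 genes when library size alone was used. Egfros had 59.0, 45.4 and 51.4 CPM in WT against 62.2, 77.5 and 59.4 CPM in flox/flox libraries. The log2 fold changes were 0.42 for Pard3bos1, 0.32 for Dnm3os and 0.35 for Egfros, and the edgeR adjusted p was 1.00 for each. With library size alone they were 0.21, 0.08 and 0.14, and that of Dnm3os was 0.19 without KO2938. Of the sense genes, 23 passed the low-count filter, and edgeR called 0 of these.

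The labels also place the mice in litters, and the litter was not used to choose the genes either. Litter 2 held 1 mouse of each genotype, so the litter was tested with genotype in the model. The p-values of this test measure the spread between mice, not the spread between litters. Anything else that the mice of a litter shared cannot be told apart from the litter. Between the litters, 12 of the 79 genes had an edgeR adjusted p-value under 0.05, 15.2% of them, against 620 of all 5478 genes (11.3%). Of the 12, 7 were higher in litter 2 and 5 were lower, against 6.08% and 5.24% of all tested genes. Values of the litters did not overlap in 28 of the 79 genes, against 1805 of 5478 (32.9%), and the median log2 fold change was 0.00 for the 79 genes and -0.01 for all. Of the 28, 20 were higher in litter 2 and 8 lower (25.3% and 10.1% of the 79), against 16.9% and 16.0% of all tested genes. At an unadjusted p under 0.05, 18 of the 79 were higher and 6 lower (22.8% and 7.59%), against 13.1% and 12.1%. With library size alone the litters did not overlap in 18 of the 79 genes, 3 higher and 15 lower, against 249 higher and 1024 lower of all tested genes, so the lean depends on the scaling. By DESeq2 4 of the 79 genes were called (5.06%), against 186 of 5478 (3.40%). Without WT2931 edgeR called 5 (6.33%), against 233 of 5847 (3.98%).

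The scaling and the make-up of the libraries bear on this comparison. With scaling by library size alone edgeR called 7 of the 79 genes between litters (8.86%), 2 of them higher in litter 2, against 265 of 5478 (4.84%). With that scaling the median log2 fold change of all tested genes between litters was -0.19, against -0.01 with TMM. AY036118 took 13.6% and 41.0% of the counts in the 2 libraries of litter 2, and 14.5% to 22.1% in those of litter 1. Marker lists differed too. In CPM the ductal list was at 74.4 and 92.6 in WT2931 and KO2938 of litter 2, above the 31.7 to 52.1 of litter 1. The endocrine list was at 827 and 713 in litter 2, below the 901 to 1086 of litter 1, and the beta cell list was at 442 and 393, below the 487 to 609 of litter 1. Genes of the endocrine list did not all share its direction. Raw counts of Chga were 199, 196, 214 and 187 in litter 1 and 210 and 128 in WT2931 and KO2938. Chgb had 20, 27, 19 and 20 in litter 1 and 26 and 19 in litter 2. Scg2 had 170, 257, 156 and 154 in litter 1 and 102 and 78 in litter 2. The alpha cell list was at 64.9 and 54.2 in litter 2, below the 77.0 to 173 of litter 1. What part these play in the differences of the 79 genes between litters was not tested.

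The genes that were lower in litter 2 included those of 2 sense genes known from innate immunity. Slfn5os is named for Slfn5, a Schlafen family gene induced by interferon. It had 155, 160, 195 and 160 CPM in WT2772, WT2777, KO2775 and KO2776 of litter 1, and 55.4 and 54.2 CPM in WT2931 and KO2938 of litter 2. Both libraries of litter 2 were at about the same level, far below all of litter 1. The log2 fold change was -1.60 ± 0.19 (SE), with an edgeR adjusted p of 1.35e-08. Its exons cover 559 bp of Slfn5 coding sequence and 151 bp of the last exon of Unc45b, the neighbouring gene. Dhx58os is named for Dhx58 (LGP2), a sensor of viral RNA. It had 75.5, 36.3, 72.5 and 17.6 CPM in litter 1 in the same order, and 18.9 and 21.0 CPM in litter 2. KO2776 was as low as litter 2, so that the litters overlapped, and the mean of litter 1 rested on WT2772 and KO2775. The log2 fold change was -1.37 ± 0.37, with an edgeR adjusted p of 0.0104, and -0.98 without KO2775 (edgeR adjusted p = 0.0926) and -1.15 without WT2931 (edgeR adjusted p = 0.201). Counts of Dhx58os were low, from 10 to 55. Slfn5 and Dhx58 themselves were not analysed here.

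The other 3 lower genes showed smaller differences. Hopxos, named for an atypical homeodomain protein, had 180, 140, 192 and 231 CPM in litter 1 and 115 and 103 CPM in litter 2. It was lower in litter 2 by a log2 fold change of -0.73 ± 0.17 (edgeR adjusted p = 0.00207), which was -0.47 without KO2938 and no longer past the threshold (edgeR adjusted p = 0.200). Tmem51os1 had 132, 88.3, 91.8 and 93.3 CPM in litter 1 and 55.4 and 55.9 CPM in litter 2. Its log2 fold change was -0.87 ± 0.21 (edgeR adjusted p = 0.00396). Hectd2os, named for a ubiquitin ligase gene, had 122, 117, 91.8 and 104 CPM in litter 1 and 67.6 and 64.7 CPM in litter 2. Its log2 fold change was -0.72 ± 0.20 (edgeR adjusted p = 0.0104). In all 3 both libraries of litter 2 were below all 4 of litter 1, also with library size alone. Without WT2931, which leaves litter 2 with 1 library, the calls of Tmem51os1 and Hectd2os were lost. Their log2 fold changes were then -0.72 and -0.58.

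Among the 7 genes that were higher in litter 2, the 2 genes named for Pitpnm2 came first. Pitpnm2 encodes a membrane-associated phosphatidylinositol transfer protein. Both os genes lie in its introns at different places, on the plus strand of chromosome 5, from 124194907 to 124200346 (Pitpnm2os2) and from 124229725 to 124237137 (Pitpnm2os1). Neither has an exon over an exon of a gene on the other strand. Pitpnm2os2 had 111, 192, 130 and 187 CPM in WT2772, WT2777, KO2775 and KO2776, and 419 and 318 CPM in WT2931 and KO2938. The log2 fold change was 1.26 ± 0.15, with an edgeR adjusted p of 2.55e-08. Pitpnm2os1 had 60.4, 97.3, 56.3 and 93.3 CPM in litter 1 and 193 and 142 CPM in litter 2, a log2 fold change of 1.13 ± 0.19 (edgeR adjusted p = 1.62e-05). Within litter 1 both genes were lower in WT2772 and KO2775 than in WT2777 and KO2776. Pitpnm2 had 45.3, 49.3, 45.9 and 44.0 CPM in litter 1 and 59.5 and 36.7 CPM in litter 2. For Pitpnm2 the log2 fold change was 0.07 ± 0.26, and the difference between this value and those of the os genes was not tested.

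The remaining 5 higher genes were Pip5k1bos, Dnmt3aos, Tbc1d22bos, Uckl1os and Fam219aos. Pip5k1bos, named for a kinase that makes phosphatidylinositol bisphosphate, had 53.5, 53.2, 42.9 and 59.9 CPM in litter 1 and 74.4 and 110 CPM in litter 2. Its log2 fold change was 0.79 ± 0.22 (edgeR adjusted p = 0.0104), and 0.48 without KO2938 (edgeR adjusted p = 0.376). Dnmt3aos lies across from Dnmt3a, a DNA methyltransferase that sets new methylation marks. It had 63.1, 79.2, 75.5 and 65.2 CPM in litter 1 and 131 and 107 CPM in litter 2, a log2 fold change of 0.75 ± 0.19 (edgeR adjusted p = 0.00443), and 0.60 without WT2931 (edgeR adjusted p = 0.267). Dnmt3a itself had 17.8, 16.9, 17.8 and 14.1 CPM in litter 1 and 10.8 and 17.5 CPM in litter 2. Tbc1d22bos, named for a gene with a Rab GTPase activating domain, had 129, 113, 130 and 137 CPM in litter 1 and 211 and 171 CPM in litter 2. Its log2 fold change was 0.60 ± 0.16 (edgeR adjusted p = 0.00639), and 0.36 without WT2931 (edgeR adjusted p = 0.432). Dnmt3aos and Tbc1d22bos overlapped between litters with library size alone. Uckl1os and Fam219aos, with the CPM values given above, had log2 fold changes of 0.40 ± 0.13 and 0.38 ± 0.13 and edgeR adjusted p-values of 0.0416 and 0.0490. Without WT2931 the log2 fold changes were 0.28 and 0.25. Both were near the threshold and past it in 4 and 3 of 11 alternative settings, over which the adjusted p ranged from 0.0241 to 0.713 and from 0.0475 to 0.730.

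**Figure D2:**
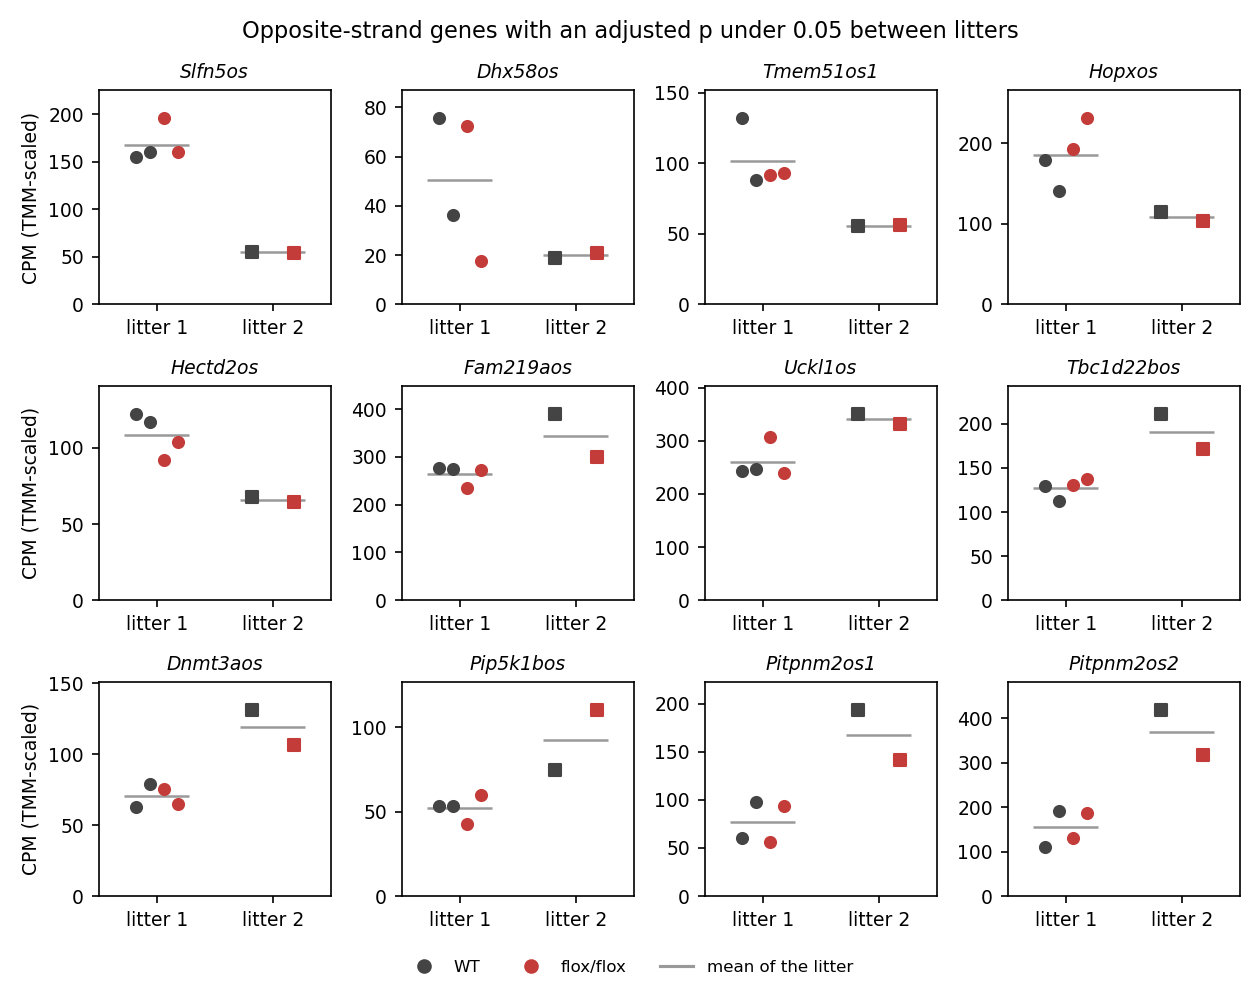
CPM on the TMM scale of the 12 opposite-strand genes with an edgeR adjusted p under 0.05 between litters, 1 panel per gene from the lowest to the highest log2 fold change; each vertical axis starts at 0. Points are libraries (4 of litter 1 as circles, 2 of litter 2 as squares; grey for WT, red for flox/flox) and lines are litter means. In 11 panels the litters do not overlap, and in Dhx58os KO2776 lies with litter 2.

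Litter 2 held 1 library of each genotype, so a test of whether the genotype difference depends on the litter rests on single libraries, and although it was run its result is not used here. The direction of all 12 genes was the same under the 11 alternative settings, and Slfn5os, Pitpnm2os2 and Pitpnm2os1 were past the threshold in every one of them.

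Sense genes gave fewer values between litters, because 37 of the 60 in the table were under the low-count filter. Of the 23 that passed, which had to have the higher counts, edgeR called 1 (4.35%), against 620 of all 5478 genes (11.3%). This was Tmem150c, with 17.8, 26.0, 10.4 and 17.6 CPM in litter 1 and 5.41 and 3.50 CPM in litter 2, a log2 fold change of -1.96 ± 0.56 (edgeR adjusted p = 0.0143). Tmem150cos had 102, 92.2, 78.5 and 75.7 CPM in litter 1 and 82.5 and 82.1 CPM in litter 2, a log2 fold change of -0.09 ± 0.19. Of the 12 called opposite-strand genes, 4 had a tested sense gene, 5 had a sense gene under the filter and 3 had a sense gene that was not analysed here. Uckl1, across from Uckl1os, had a log2 fold change of 0.18 ± 0.34 between litters. Whether an os gene and its sense gene differ in their fold change between litters was not tested in any pair.

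**Figure D3:**
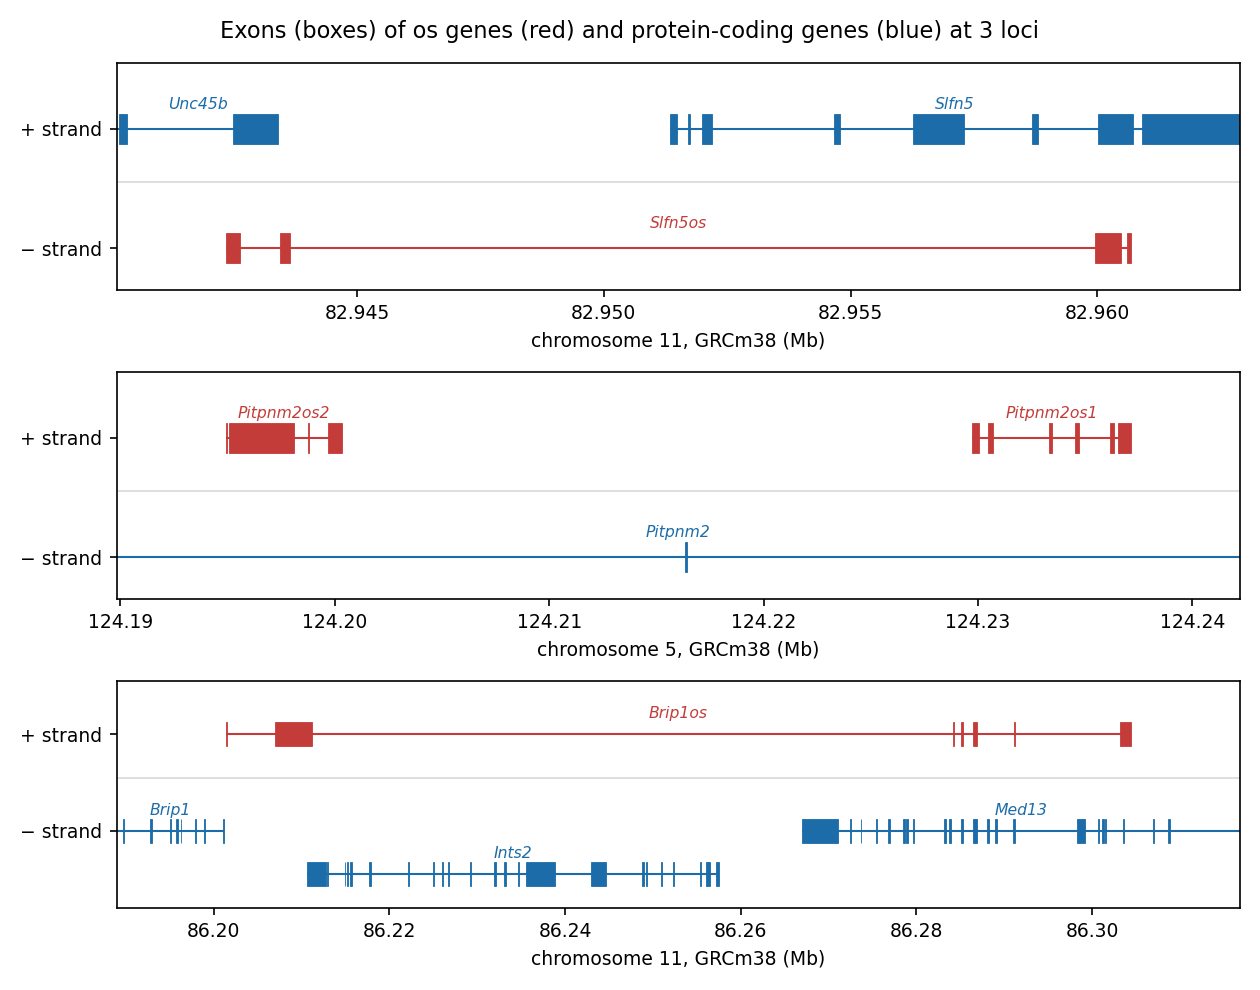
Exons (boxes) of 3 loci in GENCODE vM21 coordinates on GRCm38, in Mb, with opposite-strand genes in red, protein-coding genes in blue, and the plus strand above the minus strand. Slfn5os covers exons of Slfn5 and Unc45b, both Pitpnm2 opposite-strand genes lie in introns of Pitpnm2, and Brip1os lies across from Ints2 and Med13 and starts 176 bp from Brip1.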

How the data were processed

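Libraries were made by the authors from strand-specific total RNA; after removal of ribosomal reads they aligned to mm10 (HISAT2 2.1.0) and counted per Ensembl gene (HTSeq, at default settings apart from a lower limit on mapping quality). The deposited counts are whole numbers without normalization, and all 6 columns were used. A further table of the authors' own DESeq2 comparison (fold changes and p-values) was not used. The members and gene lists were chosen with earlier results of these data known.

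Of the 15286 genes, 15258 were matched by identifier to GENCODE vM21 (GRCm38), which gave type, exons and strand. A sense gene is the gene whose symbol remains when os, or os and a number, is removed; 2 were matched through an older symbol. Ratios were formed from mean counts with 0.5 added, per kb of merged exons. Pairs whose sense gene has no row were planned to count as 0 and were instead left out, since a missing row cannot be read as 0; the planned value stands among the alternatives, and this change was chosen after seeing the data. Coding windows were read from GENCODE transcripts.

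Tests used edgeR 4.0.16 (R 4.3.3): quasi-likelihood, TMM, filterByExpr with its minimum count of 10, Benjamini-Hochberg over all 5478 tested genes, adjusted p under 0.05. Genotype was the only term in the genotype comparison, and litter was tested beside genotype. Standard errors are those implied by the F statistic. The scripts were tested on simulated counts. Alternatives were DESeq2 1.42.0, RLE size factors, library size only, no low-count filter, a replicate block on litter or on 3 pairs, litter without a genotype term, and each library left out in turn. In litter 1 the pairs joined WT2772 with KO2775 and WT2777 with KO2776 by replicate number, which the labels do not describe as a pairing of mice.

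The labels give each mouse a litter, so litter pairs the libraries. Deviations from genotype means correlated at 0.27, 0.16, 0.14 and 0.18 within litter 1, at 0.46 in litter 2, and between -0.35 and -0.25 across litters. The deviations of the libraries of a genotype cancel out in each gene, so these values depend on each other. Negative values across litters follow in part from positive ones within litters and are not separate support for the litter labels. Genes named in full are the 12 of highest mean count, the 3 with the smallest p in each direction of both comparisons, those past the adjusted threshold, the 3 whose sense gene has most counts per kb, and 3 genes on either side of the mean of 20; genes named outside that rule were chosen after their values were seen.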

Additional observations from a re-analysis of the deposited data

Results flagged for a closer look

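For each of the 79 genes, the 4 libraries of litter 1 were checked for 1 value that lies far from the other 3 by Dixon's ratio of gap to range; groups of 3 and of 2 were too small to check. Chance sets apart a share of 0.05 of such groups, or 3.95 of 79, and 5 were found. In KO2775, Slfn5os had 195.4 CPM against 155 to 160.3 in the other 3 libraries, Uckl1os had 307.9 against 239.5 to 246.6, Sp3os had 41.45 against 31.7 to 32.93, and Fam219aos had 233.9 against 273 to 275.8. In WT2772, Tmem51os1 had 131.7 CPM against 88.26 to 93.34. KO2775 held 4 of the 5 values, 3 of them high and 1 low. These values were not tested further.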

How the results depend on the processing

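Between genotypes no opposite-strand gene was called under any of the 12 alternatives. Among all genes, 0 became 3 with a replicate block on litter and 3 with a block on 3 pairs (Gm26526, Gm20633 and Gm18194 in both, named after their values were seen), 2 with library size only, and 0 to 1 with a library left out; the block changed no other call. Between litters, the 620 called genes (333 higher) became 265 (46 higher) with library size only, 186 with DESeq2 and 233 to 540 with a library left out, the lowest without WT2931. The 12 opposite-strand genes became 7, 4 and 5 to 13 in the same order. DESeq2 kept Slfn5os, Hopxos, Pitpnm2os1 and Pitpnm2os2, and the test without WT2931 kept these and Pip5k1bos. Without KO2938, Hopxos (log2 fold change -0.47, edgeR adjusted p = 0.200) and Pip5k1bos (0.48, 0.376) lost their call. Without KO2775, Dhx58os, Fam219aos and Pip5k1bos lost theirs, without KO2776 Uckl1os, and without WT2772 or WT2777 both Fam219aos and Uckl1os. Other genes gained a call. These were Grin1os and Sap30bpos without KO2776, Ube4bos3 without WT2772, and Grin1os, Far1os and Prkag2os2 without KO2938. Library size alone lost Dnmt3aos, Fam219aos, Pip5k1bos, Tbc1d22bos and Uckl1os. The cause was not tested. Leaving out WT2931 or KO2938 leaves litter 2 with 1 library, which is then assumed to vary like the others.

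In all 66 pairs the opposite-strand gene was above its sense gene per kb of exon whichever library was left out. It was so in 64 pairs per kb of gene span, in 63 on raw counts, in 51 of 51 pairs with overlapping exons, in 15 of 15 without, and in 79 of 79 with absent sense genes counted as 0, the setting that was planned as the main one and became an alternative after seeing the data. The median log2 ratio of 5.56 moved to 3.56 on raw counts, 6.66 per kb of span, 5.92 and 4.32 with and without overlap of exons, and 6.02 with absent genes as 0. A mean of 10, a mean of 50 or 20 counts in every library would have given 103, 53 or 71 genes.

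Of the 60 sense genes in the table, 29 had a mean under 5 counts, and 37 were under the low-count filter and not tested.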
